A study of Arabidopsis thaliana with 30 samples.

Results

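The Aux/IAA genes described here are 10 members of the 29 Aux/IAA genes of Arabidopsis thaliana, taken by name from 2 deposited tables of 32833 genes each: IAA1 (AT4G14560), IAA2 (AT3G23030), IAA3/SHY2 (AT1G04240), IAA5 (AT1G15580), IAA6 (AT1G52830), IAA7/AXR2 (AT3G23050), IAA14/SLR (AT4G14550), IAA17/AXR3 (AT1G04250), IAA19/MSG2 (AT3G15540) and IAA29 (AT4G32280). All 10 were present in both tables. After a filter on low counts 8 of the 10 could be tested in the bak set, without IAA5 and IAA6, and 9 of the 10 in the tcp set, without IAA5.

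The series measured poly-A RNA from whole seedlings labelled 6 days old, with mock treatment or submergence, in 30 libraries that make 10 groups of 3. The bak set held the accession Col and the double mutant bak1-3 bkk1-1, described as T-DNA lines and carrying lesions in a pair of receptor-like kinase genes, each with mock treatment and under submergence. The tcp set held its own Col control and the Crispr lines tcp21 and tcpq, again with both treatments, TCP21 being a class I TCP transcription factor gene. The sources used here do not name the genes altered in tcpq, the number of independent lines behind each mutant, the duration of submergence or the pooling of seedlings. The series title places BKK1 and TCP21 in a feedback loop in submergence tolerance, and the extraction text mentions germinating seeds as well as seedlings. Nothing in the labels says that replicates were separate cultures, so the p-values measure the spread between these libraries, which may be technical.

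Aux/IAA proteins are short-lived repressors of auxin signalling. Without auxin they bind auxin response factors (ARFs) on promoters and recruit corepressors of the TOPLESS family. Auxin glues them to the TIR1/AFB receptors, F-box proteins that have them degraded, which frees the ARFs. Many Aux/IAA genes are themselves induced by auxin within minutes, so their transcripts are widely used as a readout of the pathway, and the proteins they encode close a negative feedback loop. IAA19 and IAA29 are also known as targets of light and brassinosteroid regulated growth factors in elongating stems.

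Of the 10 genes, 6 lie in 3 divergently transcribed neighbour pairs in the RefSeq annotation of TAIR10.1: IAA3 with IAA17 at a distance of 6388 bp on chromosome 1, IAA2 with IAA7 at 12510 bp on chromosome 3, and IAA14 with IAA1 at 10732 bp on chromosome 4. The 3 promoters below, 250 bases up to the annotated gene start and taken from the RefSeq TAIR10.1 sequence, are shown because IAA19 and IAA1 hold the most of the searched motifs among the tested members and IAA3, which holds none, has the largest difference between genotypes. Capitals mark the auxin response elements TGTCTC and TGTCGG, the G-box CACGTG bound by PIF factors, and CGTGTG, a form of the element bound by the brassinosteroid factors BZR1 and BES1, on either strand. The submitters' notes name TAIR10.
IAA19, chr3:5263751-5264000, plus strand: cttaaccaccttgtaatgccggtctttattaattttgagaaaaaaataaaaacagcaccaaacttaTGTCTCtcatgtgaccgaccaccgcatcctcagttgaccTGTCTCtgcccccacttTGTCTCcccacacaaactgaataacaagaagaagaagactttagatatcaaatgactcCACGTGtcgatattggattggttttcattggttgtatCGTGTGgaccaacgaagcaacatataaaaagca
IAA1, chr4:8360746-8360995, plus strand: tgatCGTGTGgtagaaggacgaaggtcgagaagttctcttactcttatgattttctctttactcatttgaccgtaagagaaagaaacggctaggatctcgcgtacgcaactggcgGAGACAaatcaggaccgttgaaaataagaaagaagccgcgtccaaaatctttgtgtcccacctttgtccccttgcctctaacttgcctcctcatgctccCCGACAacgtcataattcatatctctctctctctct
IAA3, chr1:1129690-1129939, minus strand: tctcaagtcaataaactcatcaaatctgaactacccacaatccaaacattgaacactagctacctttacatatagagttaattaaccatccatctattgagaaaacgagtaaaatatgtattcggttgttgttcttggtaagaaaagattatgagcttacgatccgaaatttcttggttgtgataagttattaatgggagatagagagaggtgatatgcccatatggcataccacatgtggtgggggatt

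IAA19 held TGTCTC at 3 positions, starting 184, 145 and 128 bases before the gene start, with a G-box at 70 and CGTGTG at 33. IAA1 held TGTCTC at 135, TGTCGG at 36 and CGTGTG at 246. Both strands of all windows of this length were searched for 6 motifs, the others being CGTGCG and TGGGNCC, a class I TCP type, and no motif was required to be free of overlap with another. TGTCTC occurred in 4 of the 10 members (IAA1, IAA5, IAA6 and IAA19) and in 10.9% of 27443 promoter windows. TGTCGG occurred in 2 members against 4.16% of windows, CACGTG in 2 (IAA7 and IAA19) against 6.49%, TGGGNCC in 2 (IAA5 and IAA6) against 4.41%, CGTGTG in 2 against 5.37%, and CGTGCG in 0 against 1.57%. IAA2, IAA3, IAA14, IAA17 and IAA29 held none of the 6. These matches describe letters in the window and say nothing of binding.

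Libraries held 19662531 to 27417759 counts in the bak set and 17466180 to 33957452 counts in that of tcp21 and tcpq, the tcp set. BAK1 and BKK1 transcripts were lower in bak1-3 bkk1-1 than in Col (mock means 28.0 against 78.0 CPM, and 13.0 against 36.4 CPM). TCP21 transcripts were lower in tcp21 and tcpq (29.9 and 22.1 against 92.9 CPM in mock). Under submergence mean TCP21 was 23.3 CPM in tcp21 but 60.7 CPM in tcpq, against 78.2 CPM in Col. Mean BAK1 under submergence was 77.2 CPM in the double mutant against 132 CPM in Col, and BKK1 19.1 against 47.3 CPM. CPM is the usual count scaled to a library's total, here after TMM scaling of library sizes. Photosynthesis and root markers were both detected in all groups of these whole seedlings. The summed level of 9 seed storage genes stood apart in the bak set, at 266 CPM in Col mock replicate 2 and 135 to 251 CPM in the 3 Col submergence libraries, against at most 11.0 CPM in the other bak libraries and 3.06 CPM in the tcp set. The label of Col mock replicate 1 in the tcp set names bak1-3 bkk1-1 in its genotype field, against its title and strain. It was kept as Col. This library held BAK1 at 78.7 CPM, against 75.3 and 82.2 CPM in replicates 2 and 3 of the group. It held BKK1 at 49.2 CPM, against 35.6 and 44.2 CPM. Both levels lay above the mock means of the double mutant. In whole seedlings, fewer cells that make a transcript and less of it per cell cannot be told apart.

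Levels per kilobase of exon spanned more than 2 orders of magnitude within the family. In Col mock seedlings of the bak set, IAA2 stood at 73.8 ± 4.75 CPM per kb (SD, n = 3) and IAA7 at 70.9 ± 3.28 CPM per kb, which is within their spread. IAA17 followed at 50.6 ± 4.10 CPM per kb. A middle tier held IAA14 at 11.9 ± 1.24 CPM per kb, IAA1 at 7.46 ± 0.839, IAA3 at 7.42 ± 1.51 and IAA19 at 6.09 ± 1.40, of which the last 3 overlapped in their spread. IAA29 stood at 0.871 ± 0.187 CPM per kb, and IAA6 and IAA5 at 0.364 ± 0.146 and 0.281 ± 0.312. In Col mock of the tcp set IAA7 led at 123 ± 8.30 CPM per kb, ahead of IAA2 at 83.6 ± 9.82 and IAA17 at 56.7 ± 3.53, and IAA3 at 16.0 ± 1.64 ranked above IAA14 at 10.6 ± 1.00. The bottom 3 were again IAA29, IAA6 and IAA5, at 1.096 ± 0.707, 0.427 ± 0.314 and 0.300 ± 0.215 CPM per kb.

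**Figure D1:**
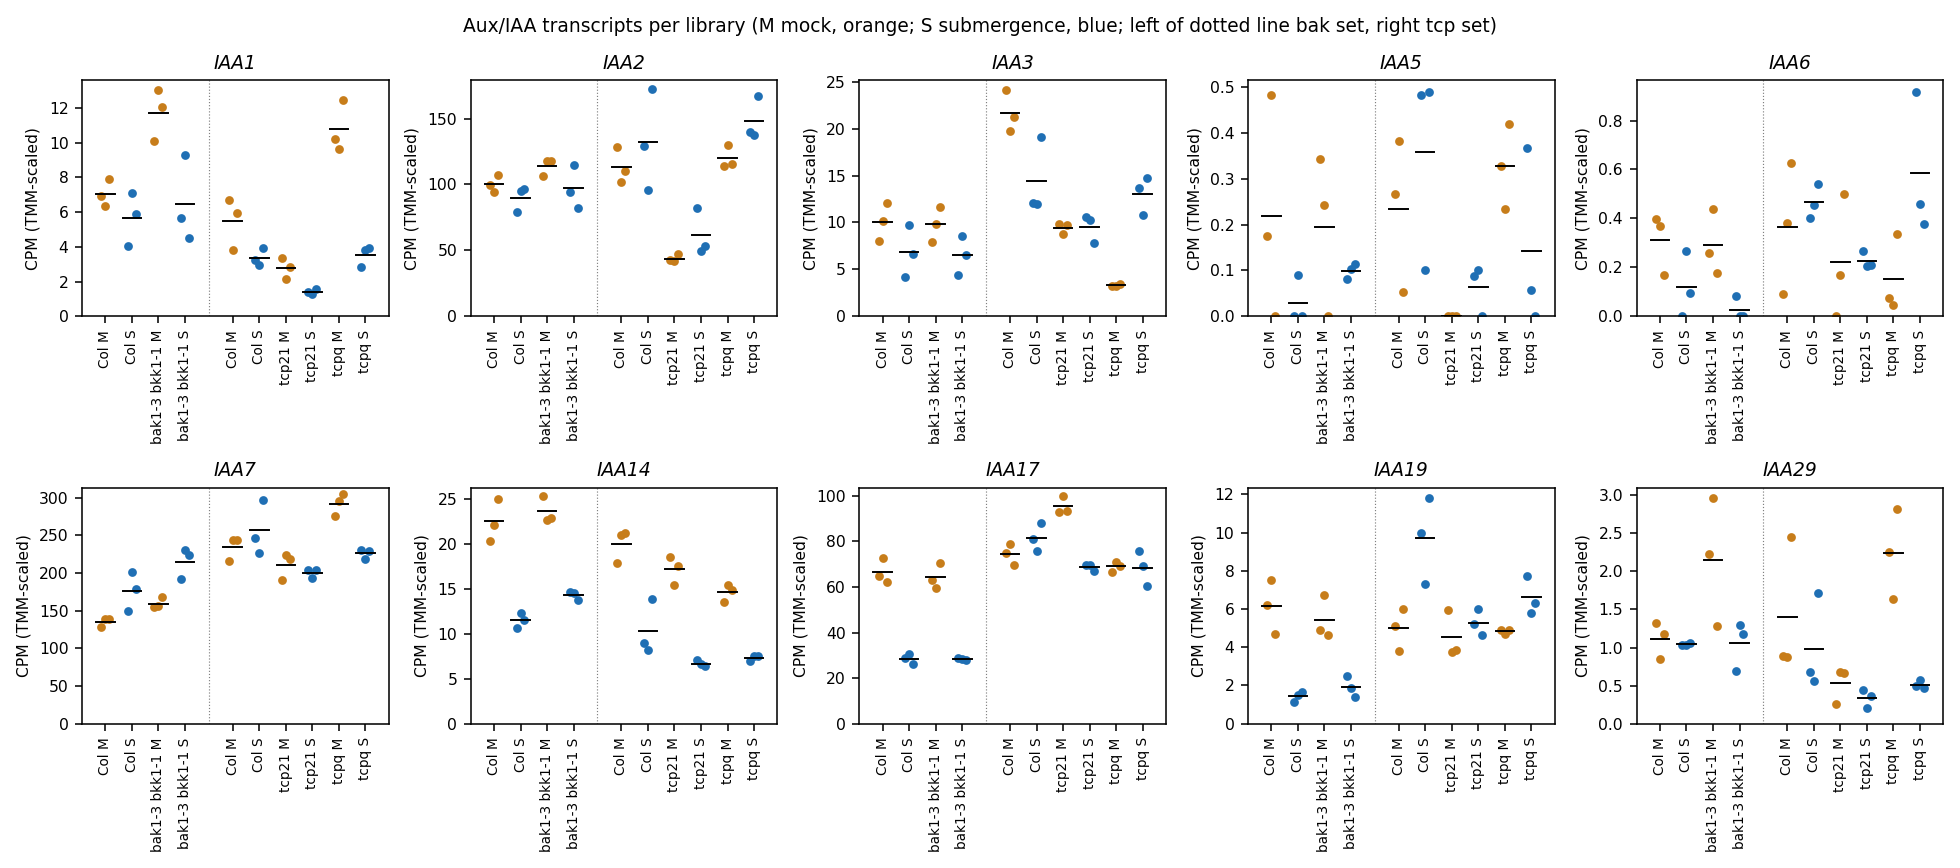
Levels of the 10 Aux/IAA genes in each library, as CPM after TMM scaling on a linear axis from 0, by group. Each point is 1 library and each bar the group mean of 3; orange is mock (M), blue is submergence (S), and the dotted line separates the bak set from the tcp set. IAA17 stands at 62.3 to 72.7 CPM in Col mock and 26.1 to 30.8 CPM in Col submergence of the bak set, and IAA3 at 3.27 to 3.41 CPM in tcpq mock.

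In Col of the bak set, submergence lowered IAA19, IAA17 and IAA14 and raised IAA7. With edgeR's quasi-likelihood test and Benjamini-Hochberg adjustment over all genes at 0.05, 3 of the 8 tested members were lower and 1 was higher, against 24.8% and 25.7% of all 20666 genes. IAA19, which acts in hypocotyl bending and stem elongation, stood at 6.21, 7.53 and 4.71 CPM in the mock libraries and at 1.14, 1.52 and 1.68 CPM under submergence. The groups did not overlap, and the level fell 4.33-fold (log2 fold change -2.11 ± 0.29 SE, adjusted p = 7.41e-06). Groups without overlap were common, at 57% of all tested genes in this comparison. For submergence the share was 61.5% in bak1-3 bkk1-1, 57% in Col of the tcp set, 53.8% in tcp21 and 70.1% in tcpq. IAA17, known from the auxin-resistant axr3 mutants, stood at 64.9, 72.7 and 62.3 CPM in mock and 28.9, 30.8 and 26.1 CPM under submergence, again without overlap (-1.22 ± 0.10, adjusted p = 1.17e-08). IAA14, which blocks lateral root initiation when stabilised, went from 20.4, 22.1 and 25.0 CPM to 10.7, 12.3 and 11.5 CPM (-0.97 ± 0.12, adjusted p = 2.53e-06).

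IAA7 moved the other way in Col of the bak set. Its mock libraries stood at 128, 139 and 139 CPM and its submergence libraries at 149, 201 and 178 CPM, all above mock (0.38 ± 0.11, adjusted p = 0.00583). IAA3 had a log2 fold change of -0.59 ± 0.28 (adjusted p = 0.0902), IAA1 of -0.33 ± 0.25 and IAA2 of -0.15 ± 0.11, and none of the 3 was called. IAA29 stood at 1.03, 1.03 and 1.06 CPM under submergence, inside its mock range of 0.853 to 1.32 CPM. The 4 calls in Col were kept with any 1 of the 6 Col libraries left out. Seed storage transcripts were high in all 3 Col submergence libraries and in 1 of the 3 Col mock libraries, so that leaving out single libraries does not separate them from submergence, and their part in the Col values was not tested.

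In bak1-3 bkk1-1, submergence lowered 5 of the 8 tested members and raised 1, against 27% and 26.5% of all genes. IAA17 fell from 63.3, 59.4 and 70.8 CPM to 28.7, 28.5 and 28.1 CPM (-1.18 ± 0.10, adjusted p = 1.6e-08). IAA19 fell from 4.92, 6.75 and 4.63 CPM to 2.52, 1.87 and 1.41 CPM (-1.49 ± 0.29, adjusted p = 0.000229), and IAA14 by 0.73 ± 0.12 on the log2 scale. IAA7 rose from 155, 156 and 168 CPM to 192, 231 and 224 CPM (0.43 ± 0.11, adjusted p = 0.00195). These 4 genes were called in the same directions in Col. The summed seed storage level was at most 11.0 CPM in mock and 2.07 CPM under submergence in the double mutant.

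IAA1, an early auxin-induced member, also fell in the double mutant, from 10.1, 13.0 and 12.1 CPM to 5.69, 9.28 and 4.49 CPM (-0.89 ± 0.23, adjusted p = 0.00288). IAA29 stood at 2.23, 2.96 and 1.28 CPM in mock and at 0.691, 1.30 and 1.18 CPM under submergence, which overlap. It was called lower (-1.03 ± 0.38, adjusted p = 0.0269), and the call was lost without mutant mock replicate 1, mock replicate 2 or submergence replicate 1 (adjusted p up to 0.148).

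The double mutant and Col were not shown to differ in any member. With edgeR 0 of the 8 tested members were called in mock, where 0.944% of all genes were called, 0 under submergence (1.38%), and 0 in the genotype by submergence interaction (0.0484%). At an unadjusted p under 0.05 the counts were 3 higher and 0 lower in mock, 2 higher and 0 lower under submergence, and 0 in the interaction, and DESeq2 called 0 in each. The largest mock differences were those of IAA29 (0.95 ± 0.37, adjusted p = 0.408) and IAA1 (0.73 ± 0.22, adjusted p = 0.19). IAA1 stood at 6.92, 6.34 and 7.91 CPM in Col mock, below all 3 mutant mock libraries. Of all tested genes 16.4% had no overlap in this comparison. IAA1 passed the threshold at adjusted p = 0.0482 when only these 6 libraries were fitted. The 95% interval of the interaction for IAA1 ran from -1.23 to 0.10 and that for IAA19 from -0.23 to 1.48 on the log2 scale. Both intervals hold 0, and differences of any size inside them are not excluded.

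**Figure D2:**
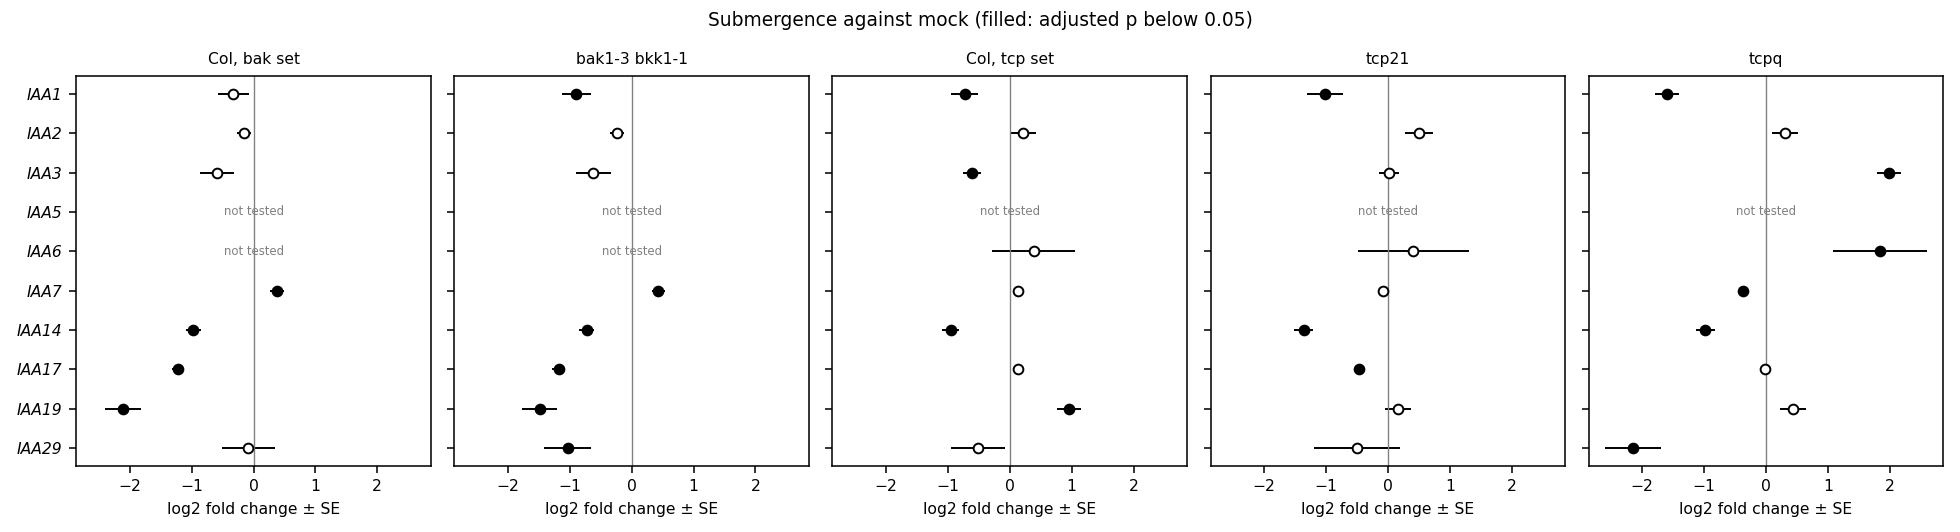
Log2 fold change of submergence against mock for each Aux/IAA gene in each genotype, with Col shown once per set in the 5 panels, from edgeR. Points are estimates, bars are SE, filled points have an adjusted p below 0.05, and genes removed by the filter on low counts are marked as not tested; IAA14 is filled and below 0 in all 5 panels, and IAA19 is filled at -2.11 in Col of the bak set and at 0.96 in Col of the tcp set.

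In Col of the tcp set, submergence lowered IAA14, IAA1 and IAA3 and raised IAA19. Of the 9 tested members 3 were lower and 1 was higher, against 23.1% and 27.4% of all 20385 genes. IAA14 went from 17.8, 21.0 and 21.2 CPM to 8.96, 8.16 and 13.9 CPM (-0.95 ± 0.14, adjusted p = 2.38e-06). IAA3, a regulator of root meristem size also known as SHY2, stood at 24.1, 19.8 and 21.2 CPM in mock and 12.1, 11.99 and 19.1 CPM under submergence, with all submergence values below mock (-0.60 ± 0.15, adjusted p = 0.00106). Its annotated gene overlaps AT1G04230 on the opposite strand by 640 bp and the strand setting of the counting is not given, so reads of the pair cannot be told apart there. AT1G04230 rose in the same comparison by 0.35 ± 0.12 (adjusted p = 0.0175), opposite to IAA3.

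IAA19 rose in this Col set, from 5.12, 3.83 and 6.01 CPM in mock to 9.97, 7.31 and 11.8 CPM under submergence. The groups did not overlap (0.96 ± 0.19, adjusted p = 0.000174). In Col of the bak set the same gene fell, from a mean of 6.09 CPM per kb in mock to 1.44 under submergence. The means in Col of the tcp set were 4.94 and 9.60 CPM per kb. The tables were scaled and fitted separately, and the difference between the sets was not tested. IAA17, which fell in Col of the bak set, stood at 75.1, 79.0 and 69.7 CPM in mock and 81.0, 76.0 and 88.2 CPM under submergence in Col of the tcp set and was not called (0.13 ± 0.08, adjusted p = 0.17). The summed level of 8 photosynthesis markers also went opposite ways in the 2 Col sets, from a mean of 45011 to 23982 CPM in the bak set and from 45008 to 55077 CPM in the tcp set; its part in the Aux/IAA values was not tested. IAA1 fell by 0.73 ± 0.22 on the log2 scale (adjusted p = 0.00655), and lost the call without Col mock replicate 1 (adjusted p = 0.0698). That library has the conflicting genotype field, and its BAK1 and BKK1 levels, given above, were not as low as in the double mutant mock.

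Submergence replicate 3 of this Col group was the highest of its 3 libraries for all 9 tested members and replicate 2 the lowest for 8. Without replicate 3 the same 4 members were called in Col of the tcp set, with IAA19 at 0.80 and IAA14 at -1.22.

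In tcp21, submergence lowered 3 of the 9 tested members, against 25.4% of all genes, and edgeR called 0 higher, against 24.5%, with 1 higher at an unadjusted p under 0.05 and 1 by DESeq2. IAA14 fell from 18.6, 15.5 and 17.5 CPM to 7.09, 6.63 and 6.39 CPM (-1.36 ± 0.15, adjusted p = 1.68e-08). IAA17 fell from 93.0, 99.9 and 93.5 CPM to 69.8, 69.5 and 67.2 CPM (-0.47 ± 0.08, adjusted p = 1.27e-05). IAA1 fell from 3.38, 2.12 and 2.82 CPM to 1.37, 1.27 and 1.58 CPM (-1.01 ± 0.29, adjusted p = 0.00521), a call lost without tcp21 mock replicate 1 (adjusted p = 0.053). IAA2, an early auxin-induced member, was the gene DESeq2 called, at 42.4, 41.6 and 46.9 CPM in mock and 82.0, 49.2 and 53.1 CPM under submergence (0.50 ± 0.22, adjusted p = 0.0769 with edgeR).

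In tcpq, submergence raised 2 of the 9 tested members and lowered 4, against 32.9% and 31.1% of all genes. IAA3 stood at 3.28, 3.27 and 3.41 CPM in mock and at 13.7, 10.8 and 14.8 CPM under submergence, a 3.97-fold rise (1.99 ± 0.20, adjusted p = 9.77e-10). The opposite-strand neighbour AT1G04230 rose by 0.56 ± 0.12. Summed root markers went from 43.1 to 47.1 CPM in tcpq mock to 96.7 to 109.8 CPM under submergence, and photosynthesis markers from 30798 to 35477 CPM to 52452 to 57296 CPM, both without overlap; their part in the tcpq values was not tested. IAA1 fell from 10.2, 9.66 and 12.5 CPM to 2.82, 3.79 and 3.91 CPM (-1.60 ± 0.19, adjusted p = 3.4e-08). IAA29 fell from 2.26, 1.63 and 2.82 CPM to 0.490, 0.575 and 0.463 CPM, a 4.43-fold fall without overlap (-2.15 ± 0.46, adjusted p = 0.000185).

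IAA14 fell in tcpq by 0.98 ± 0.15 on the log2 scale (adjusted p = 3.34e-06) and IAA7 by 0.37 ± 0.08 (adjusted p = 0.000304), the latter from 276, 296 and 305 CPM to 231, 219 and 229 CPM. IAA6 was called higher at 2, 1 and 8 counts per library in mock and 15, 8 and 9 under submergence (1.84 ± 0.76, adjusted p = 0.0365). That call was lost without tcpq mock replicate 1, mock replicate 2 or submergence replicate 1 (adjusted p up to 0.175), and under scaling by total counts (adjusted p = 0.0755). IAA19 stood at 4.88, 4.72 and 4.92 CPM in mock and 7.72, 5.80 and 6.31 CPM under submergence (0.44 ± 0.21, adjusted p = 0.0654).

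**Figure D3:**
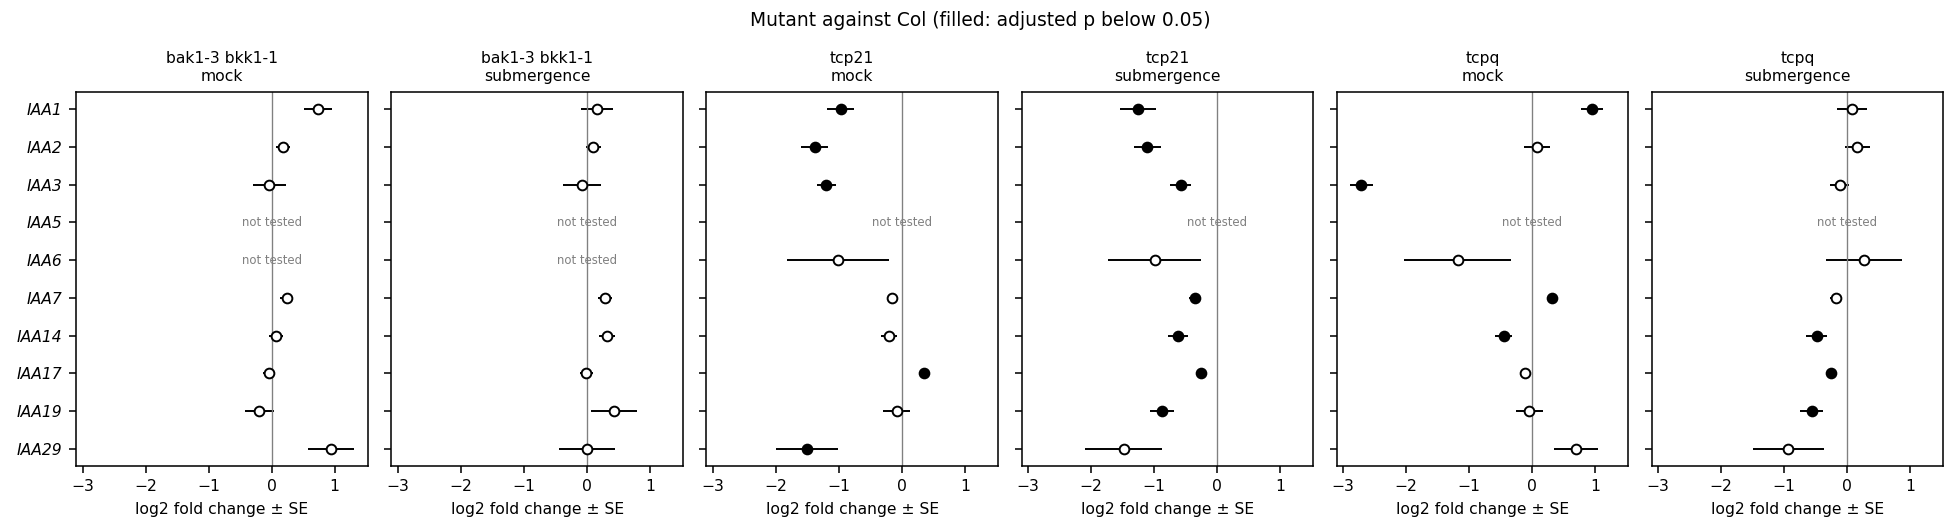
Log2 fold change of each mutant against its own Col, in mock and under submergence, for each Aux/IAA gene, from edgeR. Points are estimates, bars are SE and filled points have an adjusted p below 0.05; the 2 bak1-3 bkk1-1 panels hold no filled point, IAA3 lies at -2.71 in tcpq mock, and 7 filled points lie below 0 in tcp21 under submergence.

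In mock seedlings tcp21 held less IAA1, IAA2, IAA3 and IAA29 and more IAA17 than Col. The counts were 4 lower and 1 higher of 9, against 23.4% and 24% of all genes; all comparisons of tcp21 or tcpq with Col share the same Col libraries. IAA2 stood at 128, 102 and 110 CPM in Col and 42.4, 41.6 and 46.9 CPM in tcp21, 2.61-fold lower without overlap (-1.39 ± 0.22, adjusted p = 0.00015). Of all tested genes 51.1% had no overlap in this comparison, and 42% in tcp21 against Col under submergence. In mock the share was 57.9% for tcpq against Col and 57.6% for tcpq against tcp21. IAA3 stood at 9.87, 8.75 and 9.74 CPM in tcp21, all below the lowest Col library (-1.20 ± 0.15, adjusted p = 2.46e-07). IAA1 differed by -0.97 ± 0.22 (adjusted p = 0.000561) and IAA17 by 0.36 ± 0.08 (adjusted p = 0.000475), its 3 tcp21 mock libraries lying above the 3 of Col.

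IAA29 stood at 0.890, 0.876 and 2.45 CPM in Col mock and 0.260, 0.679 and 0.664 CPM in tcp21 mock (-1.50 ± 0.49, adjusted p = 0.0138). The call was lost without Col mock replicate 3 or tcp21 mock replicate 1 (adjusted p up to 0.225). The summed level of 10 root markers was 101 to 115 CPM in tcp21 mock and 56.1 to 65.3 CPM in Col mock, and that of photosynthesis markers 57452 to 58736 against 41452 to 49018 CPM; their part in these differences was not tested.

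Under submergence 7 of the 9 tested members were lower in tcp21 than in Col, against 14.8% of all genes, and 0 were higher, against 12.2%, with 0 higher at an unadjusted p under 0.05 and by DESeq2. IAA1 stood at 3.22, 2.97 and 3.92 CPM in Col, above all 3 tcp21 libraries (-1.25 ± 0.29, adjusted p = 0.0021). IAA2 stood at 129, 95.6 and 173 CPM in Col and 82.0, 49.2 and 53.1 CPM in tcp21 (-1.10 ± 0.21, adjusted p = 0.00212), and was not called when only these 6 libraries were fitted (adjusted p = 0.0763). IAA19 stood at 9.97, 7.31 and 11.8 CPM in Col and 5.23, 6.01 and 4.65 CPM in tcp21 (-0.88 ± 0.19, adjusted p = 0.00129). Root markers summed to 92.4 to 100.9 CPM in tcp21 against 75.7 to 86.6 CPM in Col, and photosynthesis markers to 59005 to 61703 against 54535 to 55836 CPM, again without overlap and with their part not tested. The other 4 called members, IAA3, IAA7, IAA14 and IAA17, differed by -0.58 ± 0.16, -0.36 ± 0.08, -0.62 ± 0.17 and -0.25 ± 0.08. IAA29 differed by -1.48 ± 0.61 (adjusted p = 0.0702) and was called by DESeq2 (adjusted p = 0.0317).

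Col submergence replicate 3 carried part of that count. Without it 4 members were called lower, IAA1 at -1.14, IAA2 at -0.87, IAA7 at -0.24 and IAA19 at -0.72, and the genes called over the whole table fell from 5505 to 3441. IAA3, IAA14 and IAA17 lost their calls, at adjusted p = 0.143, 0.112 and 0.129. The calls of IAA3 and IAA17 were also lost without tcp21 submergence replicate 3, and that of IAA17 without tcp21 submergence replicate 1.

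In mock seedlings tcpq differed from Col most in IAA3. Its 3 libraries at 3.28, 3.27 and 3.41 CPM lay 6.55-fold below the Col level of 24.1, 19.8 and 21.2 CPM (-2.71 ± 0.18, adjusted p = 1.28e-12), while AT1G04230 on the opposite strand differed by -0.13 ± 0.12 (adjusted p = 0.403). Of the 9 tested members 2 were lower and 2 higher, against 22.5% and 26.3% of all genes. IAA14 was the other lower member (-0.45 ± 0.13, adjusted p = 0.00546). IAA1 was higher, at 10.2, 9.66 and 12.5 CPM against 6.72, 3.83 and 5.95 CPM in Col (0.95 ± 0.17, adjusted p = 4.21e-05), and IAA7 was higher by 0.32 ± 0.08 (adjusted p = 0.00192). Root markers summed to 43.1 to 47.1 CPM in tcpq mock and photosynthesis markers to 30798 to 35477 CPM, both below Col, and their part in these differences was not tested.

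Under submergence the IAA3 levels of tcpq and Col overlapped, at 13.7, 10.8 and 14.8 CPM against 12.1, 11.99 and 19.1 CPM, with a difference of -0.12 and a 95% interval from -0.43 to 0.19. Of the 9 tested members 3 were called lower, IAA14 (-0.48 ± 0.16, adjusted p = 0.0432), IAA17 (-0.26 ± 0.08, adjusted p = 0.0235) and IAA19 (-0.57 ± 0.19, adjusted p = 0.0358), against 8.17% of all genes, and 0 higher, against 8.71%, with 0 higher at an unadjusted p under 0.05 and by DESeq2. Each of the 3 calls was lost in 4 of the 6 fits that left out 1 library. These were the fits without Col submergence replicate 3 or any tcpq submergence library for IAA14 (adjusted p up to 0.401), and those without Col submergence replicate 1 or 3 or tcpq submergence replicate 2 or 3 for IAA17 and IAA19 (up to 0.204 and 0.200). With only these 6 libraries fitted, IAA14 was not called (adjusted p = 0.0604). Root markers under submergence summed to 96.7 to 109.8 CPM in tcpq against 75.7 to 86.6 CPM in Col, without overlap. Photosynthesis markers overlapped, at 52452 to 57296 against 54535 to 55836 CPM. The part of either in these differences was not tested.

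The 2 Crispr genotypes also differed from each other. In mock, 4 of the 9 tested members were higher in tcpq than in tcp21 and 2 were lower, against 26.7% and 27.2% of all genes. IAA29 was 4.59-fold higher (2.20 ± 0.42, adjusted p = 7.91e-05) and IAA1 3.79-fold higher (1.92 ± 0.19, adjusted p = 1.38e-09), without overlap in either. IAA2 was higher by 1.46 ± 0.22 and IAA7 by 0.47 ± 0.08, while IAA3 was lower by 1.51 on the log2 scale, with an SE of 0.20, and IAA17 differed by -0.47 ± 0.08. Root markers summed to 43.1 to 47.1 CPM in tcpq mock against 101 to 115 CPM in tcp21 mock. Photosynthesis markers summed to 30798 to 35477 against 57452 to 58736 CPM. Neither sum overlapped, and their part in these differences was not tested. Under submergence 2 of 9 were higher, against 8.02% of all genes, IAA1 by 1.33 ± 0.29 (adjusted p = 0.00313) and IAA2 by 1.27 ± 0.21 (adjusted p = 0.00205).

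The effect of submergence was also compared between genotypes of the tcp set, where the counts of called members were near the shares of all genes. The interaction with tcpq was called higher for 1 of 9 and lower for 2, against 17.3% and 17.1% of all genes. For IAA3 the difference of the responses was 2.59 ± 0.24 (adjusted p = 3.23e-09), a fall in Col beside a rise in tcpq. For IAA7 it was -0.50 ± 0.12 (adjusted p = 0.00118) and for IAA1 -0.87 ± 0.30 (adjusted p = 0.0233), the latter lost in 4 of the 12 fits that left out 1 library, those without Col mock replicate 2, Col submergence replicate 3, tcpq mock replicate 3 or tcpq submergence replicate 1 (adjusted p up to 0.075). IAA29 gave -1.63 ± 0.66 and was not called (adjusted p = 0.0579).

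The interaction with tcp21 was also called higher for 1 of 9 and lower for 2, against 14.7% and 16.3% of all genes. For IAA17 it was -0.60 ± 0.11 (adjusted p = 0.000133), for IAA3 0.62 ± 0.22 (adjusted p = 0.0347) and for IAA19 -0.79 ± 0.29 (adjusted p = 0.0379). The IAA17 call was kept in all 12 fits that left out 1 library. The IAA3 call was lost in 6 of them, those without Col mock replicate 1, Col submergence replicate 1 or 2, tcp21 mock replicate 2, or tcp21 submergence replicate 1 or 2 (adjusted p up to 0.107). The IAA19 call was lost in 7, those without Col mock replicate 1 or 2, Col submergence replicate 1 or 3, tcp21 mock replicate 1, or tcp21 submergence replicate 1 or 3 (adjusted p up to 0.235), and also with only the 12 libraries of tcp21 and Col fitted (adjusted p = 0.0717) and with DESeq2 (adjusted p = 0.056).

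Among the other 19 Aux/IAA genes, which include members such as IAA8 and IAA9 with broad expression, the counts in Col under submergence were 6 higher and 2 lower of 17 tested in the bak set, against 25.7% and 24.8% of all genes. For Col of the tcp set they were 6 higher and 4 lower of 15, against 27.4% and 23.1%, the lower count being near that background. IAA28, known from auxin-resistant lateral root mutants, rose in both, by 0.72 ± 0.11 and 1.69 ± 0.15, and IAA12/BODENLOS, an embryo patterning member, fell in both, by -0.91 ± 0.12 and -0.48 ± 0.14. The median log2 fold change of these genes was 0.56 for Col of the bak set and 0.26 for that of the tcp set, against -0.46 and 0.13 for the tested members of the 10 and 0.01 and 0.04 for all genes. In tcp21 under submergence 8 of 15 were lower than in Col, against 14.8% of all genes, led by IAA18 at -0.54 ± 0.10 and IAA26 at -0.52 ± 0.11.

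Receptors, ARFs and corepressors were called in part of their members, in some comparisons below the share of all genes. In Col under submergence 1 of 6 receptors was lower in the bak set (AFB4, -0.44 ± 0.14), against 24.8% of all genes, and 3 of 6 in the tcp set, against 23.1%, led by AFB5 at -0.41 ± 0.10. Of 15 ARFs 6 were lower and 1 higher in the bak set, against 24.8% and 25.7%, with ARF18 at -1.49 ± 0.15 and ARF5, the embryo and vascular activator MONOPTEROS, at 0.57 ± 0.12, and 9 were lower and 2 higher in the tcp set, against 23.1% and 27.4%, with ARF10 at -0.96 ± 0.12. In tcp21 against Col 4 of 6 receptors were higher in mock, against 24% of all genes, and 3 of 6 under submergence, against 12.2%, TIR1 among the latter by 0.48 ± 0.10 (adjusted p = 0.000852). Under submergence 4 of 5 corepressors were higher, against the same 12.2%, led by TPR1 at 0.55 ± 0.09. For the response of Col itself, mean TPR4 went from 112 CPM in mock to 55.2 CPM under submergence in the bak set. The means of TPL, TPR1, TPR2 and TPR3 were higher under submergence there. For Col of the tcp set only TPR3 had a higher mean under submergence, and TPR2 went from 101 to 67.6 CPM. Calls of corepressors in Col are not given here.

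Of 11 tested auxin transport genes, 5 were lower and 1 higher under submergence in Col of the bak set, against 24.8% and 25.7% of all genes, and 8 were lower in Col of the tcp set, against 23.1%. AUX1, the main influx carrier, had log2 fold changes of -0.67 ± 0.08 and -1.57 ± 0.08 and was called lower in both. The efflux carrier gene PIN7 rose in the bak set (0.69 ± 0.11) and fell in the tcp set (-1.86 ± 0.12). Among synthesis genes, the flavin monooxygenase genes YUC5 and YUC8 were higher in both Col sets, YUC8 by 1.85 ± 0.27 and 1.03 ± 0.18. Among the genes of auxin conjugation and oxidation, which are themselves auxin-induced in the case of the GH3 group, GH3.3 rose in both (1.21 ± 0.34 and 2.58 ± 0.20), whereas GH3.2 rose in the bak set (1.34 ± 0.23) and fell in the tcp set (-1.63 ± 0.14). GH3.6 had a mean of 57.4 CPM in mock and 12.1 CPM under submergence in Col of the tcp set, and 63.2 and 53.1 CPM in the bak set. Means of GH3.5 and GH3.17 were also lower under submergence in Col of the tcp set, and those of DAO1 and DAO2 higher. The shares of the synthesis and inactivation lists that were called are not given here, and single genes do not stand for a list. In tcpq mock GH3.2 was lower than in Col by 2.58 on the log2 scale, with an SE of 0.16. Its means there were 5.44 against 32.6 CPM.

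Genes of the growth factors that act on IAA19 and IAA29 promoters were measured alongside. PIF4 fell under submergence in Col of both sets, by -1.78 ± 0.17 and -0.98 ± 0.09, and BES1 by -0.65 ± 0.10 and -0.69 ± 0.08, while PIF3 rose by 1.97 ± 0.10 and 0.69 ± 0.15. The other listed factors, PIF5, PIF7 and BZR1, had higher means under submergence than in mock in both Col sets. Mean PIF7 went from 21.8 to 29.8 CPM in the bak set and from 32.3 to 44.5 CPM in the tcp set. Their calls for submergence are not given here. In mock 5 of the 6 factors were lower in tcp21 than in Col, against 23.4% of all genes, and 4 of 6 in tcpq, against 22.5%, with PIF4 at -1.34 ± 0.09 and -1.14 ± 0.09. PIF3 was the 1 factor called higher in tcpq mock, against 26.3% of all genes, at 1.00 ± 0.14 (adjusted p = 1.03e-06). IAA19 itself differed in mock by -0.08 ± 0.22 in tcp21 and by -0.05 ± 0.22 in tcpq, and neither was called. IAA29 was called lower in tcp21 mock, at -1.50 ± 0.49, with the dependence on single libraries given above, and stood at 0.70 ± 0.35 in tcpq mock without a call (adjusted p = 0.105).

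**Figure D4:**
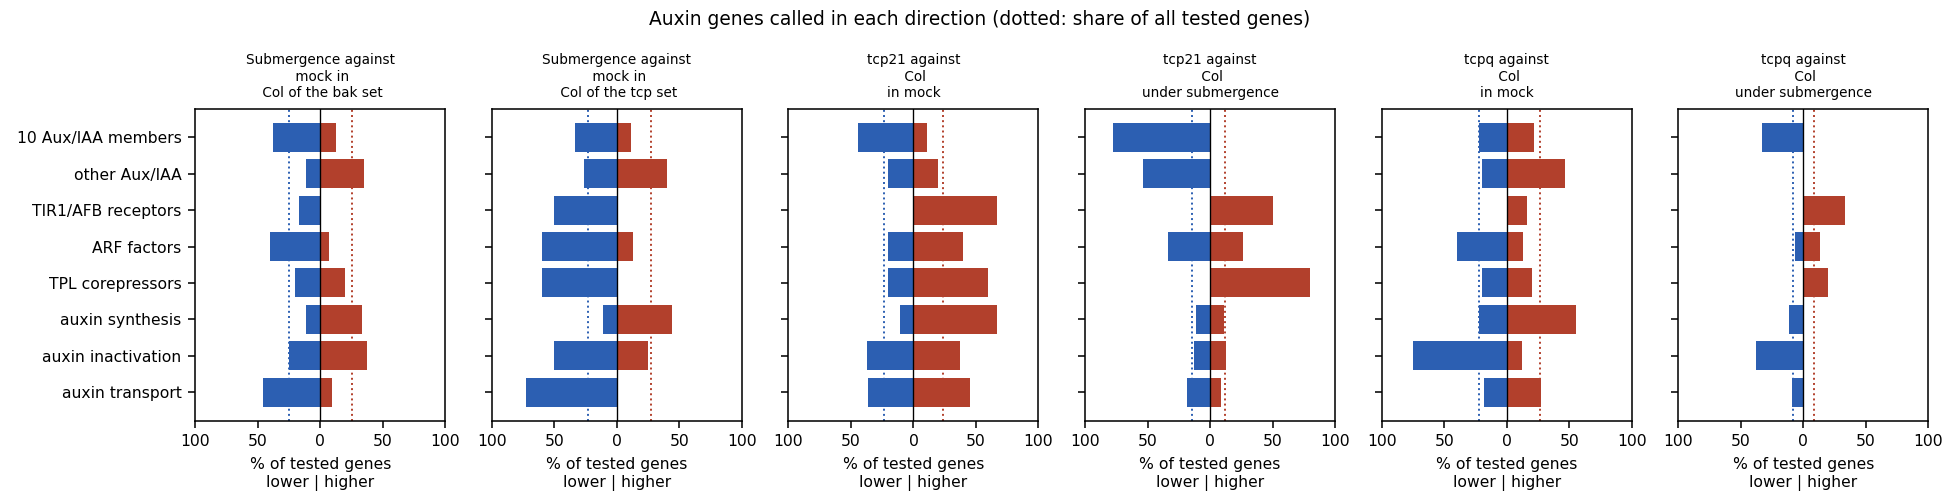
Share of tested genes of each auxin list called lower (blue, to the left) and higher (red, to the right), in percent, for 6 comparisons from edgeR. Dotted lines give the share of all tested genes called in that direction; for tcp21 against Col under submergence the 10 listed Aux/IAA genes, of which 9 were tested, reach 7 called lower against a background of 14.8%.

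Correlations among the members were higher in the bak set than in the tcp set. Over the 12 bak libraries the pairwise Pearson correlations of log2 CPM had a median of 0.59 over 28 pairs, and over the 18 tcp libraries a median of 0.14 over 36 pairs; libraries within a set share groups, so these values describe the set and are not tests. The closest pair in the bak set was IAA1 with IAA2 (r = 0.96), each being the gene most like the other among 15138 genes, and in the tcp set IAA7 with IAA29 (r = 0.88). The divergent neighbours differed in this respect, with r of 0.67 for IAA3 and IAA17, 0.69 for IAA1 and IAA14 and -0.08 for IAA2 and IAA7 in the bak set, and 0.19, 0.56 and 0.62 in the tcp set.

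The genes most like IAA19 over the 12 bak libraries were AT3G15760 (r = 0.99), GRF1 (0.98) and WRKY40 (0.98), and over the 18 tcp libraries AT3G22290 (0.92), AT5G22875 (0.89) and NRPB4 (0.88). Those most like IAA29 were AT1G56120 (0.90), MYB16 (0.88) and AT1G07590 (0.87) in the bak set and TAS2 (0.91), AT1G52905 (0.90) and ABCI15 (0.89) in the tcp set. For IAA3 in the tcp set the closest was AT4G19160 (0.96), for IAA14 RGF9 (0.97), for IAA17 in the bak set FLA7 (0.99) and for IAA14 there RPT2 (0.97).

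IAA5 and IAA6, auxin-induced members with a role in drought responses, were at the edge of detection in all groups. IAA5 had 0 to 13 counts per library and IAA6 0 to 15. IAA5 had 0 counts in all 3 tcp21 mock libraries, which allows up to 0.0866 to 0.166 CPM per library at 3 counts, a limit that covers counting error only. In the main fit IAA5 was not tested in either set, and IAA6 was not tested in the bak set. IAA6 was tested in the tcp set and called only for submergence in tcpq. The size of change that could be detected at these depths was not computed.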

How the data were processed

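Poly-A RNA of whole seedlings was measured in 30 libraries. The authors deposited raw counts per gene in 2 tables, whole numbers per the file headers and values. Per the submitters' processing notes, fastp 0.23.1, STAR 2.7.9a and TAIR10 were used; the counter, strand setting and annotation version are not named in them. Each table was fitted alone in edgeR 4.0.16 (R 4.3.3) with filterByExpr, TMM scaling and quasi-likelihood models over all groups, and p-values were adjusted by Benjamini-Hochberg over all tested genes, with a threshold of 0.05. SE is the absolute log2 fold change over the square root of F, and is approximate for low counts. CPM were computed from the counts and TMM-scaled totals, and log2 CPM used a prior count of 2. The fit was also run on simulated counts that had the same spread setting for every gene. That setting is simpler than these libraries, and the outcome is not given here. Alternatives were RLE and total-count scaling, no filter, DESeq2 1.42.0, fewer groups, a replicate block and leaving out each library. The members and gene lists were chosen with earlier results of these data known. Besides the members, the text names genes with the smallest adjusted p in each list and direction, and the genes of highest Pearson r among those with a mean of at least 5 CPM. Some genes are named outside these rules, such as AT1G04230, IAA8, IAA9 and those given by means alone. Symbols, exon lengths and promoters come from RefSeq TAIR10.1. No protein table was used here, so protein features were not analysed here.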

Additional observations from a re-analysis of the deposited data

Results flagged for a closer look

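The response to submergence differed between tcpq and Col of the tcp set by the interaction term in edgeR for 3 members, IAA3 (2.59), IAA1 (-0.87) and IAA7 (-0.50), on the log2 scale. It differed between tcp21 and Col for IAA3 (0.62), IAA17 (-0.60) and IAA19 (-0.79). Of all genes 17.3% were called higher and 17.1% lower in the tcpq interaction, and 14.7% and 16.3% in that of tcp21. The counts of members were near these shares. IAA3 was lower in Col under submergence, at -0.60, and higher in tcpq, at 1.99. IAA17 was at 0.13 in Col and -0.47 in tcp21, and IAA19 at 0.96 in Col and 0.17 in tcp21. IAA7 was at 0.13 in Col and -0.37 in tcpq. All 6 interactions share the same Col libraries. Those of IAA3 in tcp21, IAA19 in tcp21 and IAA1 in tcpq lost their calls when single libraries were left out.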

How the results depend on the processing

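Over 16 comparisons 139 member values were tested and 56 were called. Comparisons within a set share libraries, so these values are not independent. The share of all genes called differed widely between comparisons. It ran from 0.0484% in the interaction of bak1-3 bkk1-1 to 32.9% higher and 31.1% lower for submergence in tcpq. Of the 56 called values 41 kept their call under all alternatives, 15 lost it under at least 1, and 0 changed sign. The 83 sign changes were of values that were called neither in the main fit nor in the alternative. With DESeq2 the genes called rose from 195 to 335 for bak1-3 bkk1-1 against Col in mock, from 285 to 690 under submergence and from 10 to 96 in their interaction, which RLE scaling put at 4. DESeq2 called 1 member higher in tcp21 under submergence, and 1 lower in the interaction of tcp21, as did a fit of only the groups compared, which called 1 higher in bak1-3 bkk1-1 mock. Scaling by total counts moved the median of all genes to between -0.30 and 0.16 in the tcp set, called 1 member higher in tcpq under submergence and 4 lower in the interaction of tcpq, and gave IAA7 in Col (-0.047) and IAA2 in tcpq (-0.0015) the opposite sign. The cause of these moves was not tested.

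Replicate numbers did not pair the libraries, with correlations of same-numbered deviations from -0.093 to 0.071, and 5 of 12 and 6 of 18 libraries were closest to their own number. With the replicate block 5 genes were called in the interaction of bak1-3 bkk1-1, and members lost 0 calls and gained 4.

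With 1 library left out, genes called ranged from 124 to 226 for bak1-3 bkk1-1 against Col in mock, from 184 to 314 under submergence, from 0 to 11 in their interaction, from 3441 to 5599 for tcp21 against Col under submergence and from 1696 to 1901 for tcpq against tcp21 under submergence. This last range lies wholly below the 2699 called with all libraries, by over 1.5 times without tcp21 replicate 3 or any 1 tcpq library, and lowest without tcpq replicate 1 (1696). Members called higher under submergence ranged from 1 to 2 in Col of the tcp set, 0 to 1 in tcp21 and 1 to 2 in tcpq. Members called lower than Col under submergence ranged from 4 to 8 in tcp21 and 0 to 4 in tcpq. In the interaction of tcp21 they ranged from 0 to 1 higher and 1 to 2 lower, and in that of tcpq from 1 to 3 lower. IAA17 in tcpq, not called, ranged from -0.096 to 0.072. Low counts limit IAA5, IAA6 and IAA29.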
